A study of Mus musculus with 6 samples.

Results

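The circadian clock genes described here are the 10 genes whose symbol in the deposited tables was Clock, Arntl, Per1, Per2, Per3, Cry1, Cry2, Nr1d1, Nr1d2 or Dbp. All 10 were found among the 20637 genes listed for each library, and all 10 were among the 12640 genes that reached a value of 1 in 3 or more libraries and were tested. They were chosen by name and not by their values, though with earlier results of these data known. The libraries came from poly(A) RNA of the whole uterus of female mice on postnatal day 21. There were 3 libraries from Nat10 f/f mice, which carry the floxed Nat10 gene and served as controls, and 3 from Nat10 d/d mice, in which Nat10 was deleted. Nat10 encodes an RNA cytidine acetyltransferase. The Cre driver, the cells in which Nat10 was deleted, the time of day at which uteri were collected, litters and any pooling of animals are not given in the sources used here. Time of collection and genotype therefore cannot be told apart for these genes.

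The circadian clock is a feedback loop of transcription that runs in nearly every cell, the uterus included, with a period of about a day. The proteins of Clock and Arntl (also called Bmal1) pair and bind E-box sequences near the Per, Cry, Nr1d1, Nr1d2 and Dbp genes and activate them. The PER and CRY proteins accumulate and repress that pair, and the nuclear receptors encoded by Nr1d1 and Nr1d2 (REV-ERB alpha and beta) repress Arntl through ROR elements, so that Arntl is low at the time of day when Nr1d1 and Dbp are high. Dbp and its relatives Tef and Hlf encode transcription factors that bind D-box sequences, which Per3 also carries.

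The letters of the motifs through which this loop is known to act are shown first. RefSeq promoter windows of GRCm38.p6 (the assembly of mm10, which the submitters' processing notes name) were matched by symbol for 9 of the 10 members, each reaching from 250 bases before to 50 after a transcription start, and Per2 was not matched. Both strands were searched for the E-box CACGTG, its variant CACGTT, the D-box TTATGTAA and the ROR element core GTAGGTNA. The motifs were chosen after the sequences had been seen, none contains another, and a match is a description of letters. Of all 32851 windows, 7.15% held the E-box, 4.68% the variant, 0.938% the D-box and 2.14% the ROR element core. These are shares of windows, whereas a member is counted as a gene with a match in any of its windows. Clock has 3 windows and Arntl and Per1 have 2 each, so the counts and shares are not directly comparable. Among the members, the E-box was found for 2 genes (Per1 and Cry1), the variant for 3 (Cry1, Cry2 and Nr1d1), the D-box for 1 (Per3) and the ROR core for 1 (Arntl). Clock, Nr1d2 and Dbp held none of these motifs in their windows, and sequence outside the windows was not searched.

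The sequences below run 5′ to 3′ on the strand of the gene, with motif letters in capitals. The stretches of Per3, Cry1, Nr1d1 and Per1 are the 250 bases before the start, and for Arntl the surroundings of each ROR core are shown. These genes are printed so that each of the 4 motifs is seen at least once: the ROR core in Arntl, the D-box in Per3, the variant in Nr1d1 and Cry1, and the E-box in Cry1 and Per1.
Arntl (chr7:113207494-113207521, plus strand): tggtcggaaaGTAGGTTAgtggtgcgac
Arntl (chr7:113207530-113207557, plus strand): aaggcagaaaGTAGGTCAgggacggagg
Per3 (chr4:151044666-151044915, minus strand): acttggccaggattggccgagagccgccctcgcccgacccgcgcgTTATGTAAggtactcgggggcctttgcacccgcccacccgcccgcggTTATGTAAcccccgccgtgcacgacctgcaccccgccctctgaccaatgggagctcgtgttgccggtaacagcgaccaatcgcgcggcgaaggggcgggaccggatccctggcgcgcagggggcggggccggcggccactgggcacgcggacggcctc
Nr1d1 (chr11:98775378-98775627, minus strand): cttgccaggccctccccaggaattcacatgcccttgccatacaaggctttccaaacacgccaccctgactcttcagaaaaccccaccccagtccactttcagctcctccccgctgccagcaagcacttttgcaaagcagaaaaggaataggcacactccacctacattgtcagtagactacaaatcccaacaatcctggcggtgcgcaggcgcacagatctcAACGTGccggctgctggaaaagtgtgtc
Cry1 (chr10:85185055-85185304, minus strand): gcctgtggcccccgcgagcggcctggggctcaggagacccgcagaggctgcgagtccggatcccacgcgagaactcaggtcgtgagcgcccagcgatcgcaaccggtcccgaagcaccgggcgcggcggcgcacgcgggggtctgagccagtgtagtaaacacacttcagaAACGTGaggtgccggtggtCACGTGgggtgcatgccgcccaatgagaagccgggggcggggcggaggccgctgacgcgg
Per1 (chr11:69098699-69098948, plus strand): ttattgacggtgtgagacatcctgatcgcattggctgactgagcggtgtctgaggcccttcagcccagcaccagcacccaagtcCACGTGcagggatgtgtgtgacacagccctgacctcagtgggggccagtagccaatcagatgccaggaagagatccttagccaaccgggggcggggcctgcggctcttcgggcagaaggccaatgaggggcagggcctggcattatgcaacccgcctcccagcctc

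Arntl has 2 RefSeq starts in these windows. From one of them the ROR cores began 7 bases before and at base 30 after the start, and from the other the first core began at base 40 after it. In Per3 both D-boxes lay upstream, beginning 205 and 158 bases before the start. The variant E-box of Nr1d1 began 28 bases before its start. Cry1 held the variant at 79 bases and the E-box at 60 bases before its start, and the E-box of Per1 began 166 bases before the start of that window. Cry2, which is not printed, held the variant 166 bases before its start.

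**Figure D1:**
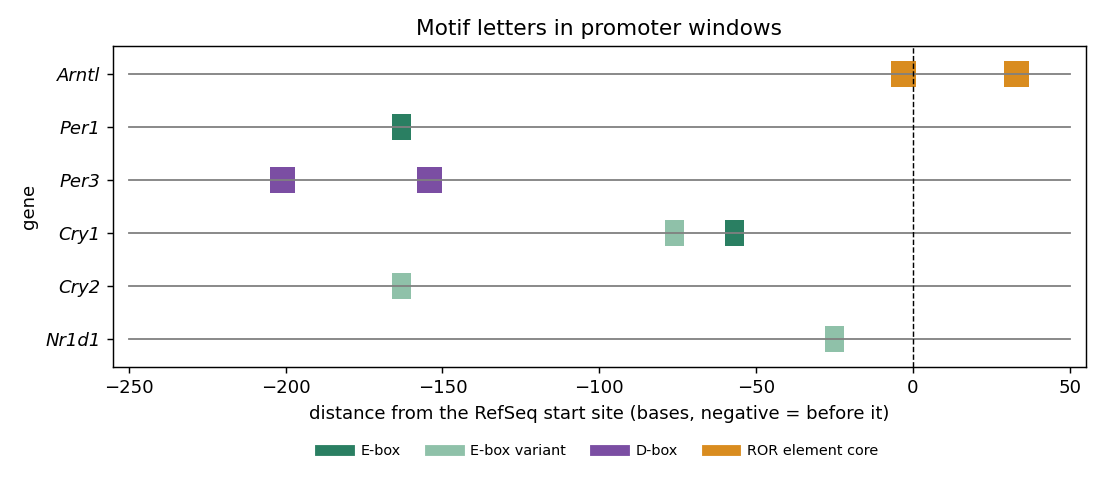
Positions of 4 motifs in the promoter windows of 6 clock genes. The x axis is the distance in bases from the RefSeq start, the grey line is the searched window from 250 bases before to 50 after, and coloured blocks are matches on either strand; for Per1 the window with a match is drawn, and for Arntl the window that holds both matches. Per3 carries 2 D-boxes and Arntl 2 ROR cores, while the E-box proper is found for Per1 and Cry1.

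The libraries themselves were examined briefly. Summed values were 500764 to 549263 per library and, judged from the ratios of the lowest values, sequencing depth differed by at most 1.259 times, with the absolute depth unknown. Nat10 was 13.2, 16.4 and 9.95 in control replicates 1, 2 and 3 and 5.57, 5.23 and 5.53 in the deleted libraries, and the groups did not overlap (log2 change -1.11, SE 0.17, limma adjusted p 0.669; -1.28 to -0.95 without each library in turn). All 8 uterine markers (Hoxa10, Hoxa11, Esr1, Pgr, Myh11, Acta2, Krt8 and Krt18) were at 25.4 or more in every library. Of 5 ovary genes the oocyte genes Zp3 and Oosp1 were listed at 0 in all 6, while Amh, Gdf9 and Foxl2 were above 0 in all 6. The summed value of the 5 genes was 29.0 to 30.0 in controls and 18.6 to 25.0 in deleted uteri, without overlap. Nat10-deleted replicate 2 stood apart on the first principal component (48.4% of the variance), with a score of 40.2 against -25.1 to 4.6 for the others, and its summed proliferation markers (Mki67, Top2a, Ccnb1, Cdk1 and Bub1) were 103 against 5.14 to 42.5. Control replicate 1 had the highest summed blood markers, 5581 against 709 to 2629, and the highest summed fat markers, 31.2 against 0.146 to 8.59. The part of these differences in the clock results below was not tested, and changes without control replicate 1 or Nat10-deleted replicate 2 are given beside the members they concern. Whole tissue was profiled, so fewer cells of a type and less RNA per cell cannot be told apart. The labels do not say whether replicates are separate animals, so p-values measure the spread between these libraries only.

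None of the 10 clock genes differed between Nat10-deleted and control uteri at an adjusted p of 0.05 (limma, adjusted p 0.922 to 0.989), where 0% of all tested genes passed. At an unadjusted p under 0.05 the count was also 0 of 10, against 4.98% of tested genes. That unadjusted count was 1 with array quality weights, 1 with the replicate block, 1 without Nat10-deleted replicate 3, and 2 without both control replicate 1 and Nat10-deleted replicate 2. Over all 12640 tested genes the counts in these settings were 3730, 726, 1403 and 1159, against 630 in the main fit. The mean was higher in deleted uteri for 3 members (Clock, Arntl and Cry1) and lower for 7. The median change was -0.15 on the log2(value + 1) scale, beside 0.03 over all tested genes, of which 56.6% had a higher mean in deleted uteri. With limma's array quality weights the median change of the members was 0.07. Clock was the only member whose groups did not overlap, or 1 of 10, where this held for 10.7% of tested genes. The median range of the members over the 6 libraries of both groups was 1.34 log2 units, beside 0.50 over all tested genes, with Clock (0.23) as the narrowest. Control replicate 1 and Nat10-deleted replicate 2 were most often at the extremes.

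**Figure D2:**
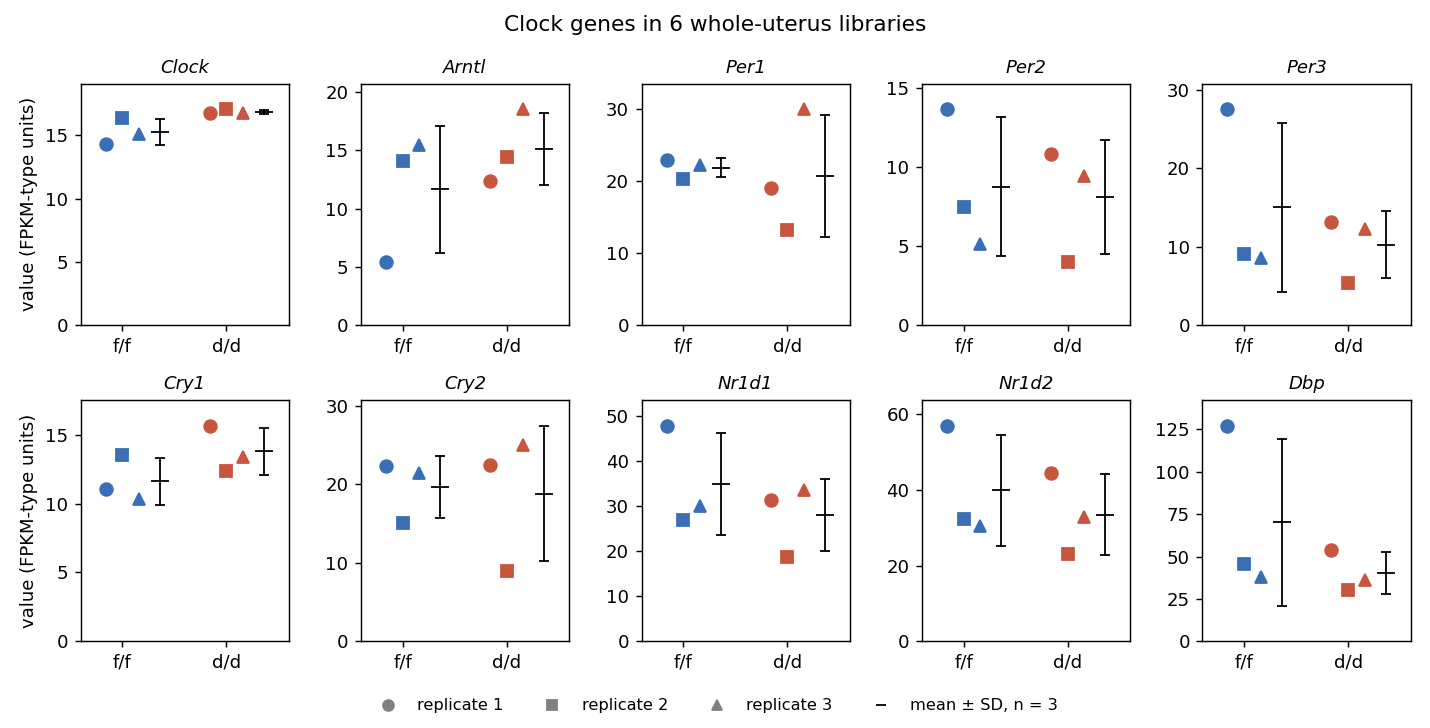
Deposited values (FPKM-type units, linear axes from 0) of the 10 clock genes in floxed control (f/f, blue) and Nat10-deleted (d/d, red) uteri; symbols are replicates and black bars the mean ± SD of 3 libraries. Control replicate 1 is the lowest library for Arntl (5.36) and the highest for Dbp (127), Per2, Per3, Nr1d1 and Nr1d2, and Nat10-deleted replicate 2 is the lowest for 7 of the 10 genes.

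The deposited values are per gene length, so levels can be ordered between genes. In controls the order by mean was Dbp (70.1), Nr1d2 (39.9), Nr1d1 (34.8), Per1 (21.9), Cry2 (19.6), Clock (15.3), Per3 (15.0), Arntl (11.6), Cry1 (11.6) and Per2 (8.74). The control ranges of neighbours in this order overlapped, except those of Nr1d1 (26.9 to 47.7) and Per1 (20.4 to 23.0). Dbp and the REV-ERB genes had the highest control means and Per2 the lowest, though the control range of Per2 (5.12 to 13.6) overlapped those of Cry1, Arntl and Per3. Without control replicate 1, an order computed after the data were seen, the control mean of Dbp was 41.7 and that of Per3 was 8.77, and Per3 came after Arntl (14.8) and Cry1 (11.9).

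Positions of the genes are those of GENCODE M21 on GRCm38. The activating arm is described first. Clock (ENSMUSG00000029238, chr5:76209868-76304792, minus strand), which encodes the DNA-binding partner of BMAL1, had values of 14.4, 16.4 and 15.1 in control replicates 1, 2 and 3 and 16.8, 17.1 and 16.8 in Nat10-deleted replicates 1, 2 and 3. Every deleted library lay above every control, but by little, since the deleted mean was 110.3% of the control mean. Controls averaged 15.3 ± 1.02 (SD, n = 3) and deleted uteri 16.9 ± 0.167 (SD, n = 3). On the log2 scale the difference was 0.13 (SE 0.10) with a limma adjusted p of 0.926, and the exact two-sided permutation p was 0.1, the smallest that 3 libraries against 3 allow. The difference was 0.09 without control replicate 1 and 0.13 without Nat10-deleted replicate 2. Clock was also the steadiest member: its highest value was 1.19 times its lowest, and 92.5% of tested genes had a range over the 6 libraries at least as large. On the same strand Clock overlaps Gm43658 by 4176 bases and Ube2n-ps1 by 459 bases.

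Arntl (ENSMUSG00000055116, chr7:113207465-113314126, plus strand), the partner that gives the loop its rhythm, had values of 5.36, 14.1 and 15.5 in controls and 12.4, 14.5 and 18.5 in deleted uteri. The groups overlapped, and 1 control stood far below the other 5 libraries, by 1.08 on the log2(value + 1) scale. Controls averaged 11.6 ± 5.50 (SD, n = 3) and deleted uteri 15.1 ± 3.11 (SD, n = 3), with a log2 change of 0.45 (SE 0.35, limma adjusted p 0.926). Without control replicate 1 the log2 change was 0.02 (SE 0.19), and without Nat10-deleted replicate 2 it was 0.47. Only 3.60% of tested genes had a range over the libraries as large as that of Arntl. Gm45355 overlaps Arntl by 2394 bases on the opposite strand, and strandedness of the counting is not given in the sources used here.

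Npas2, a paralogue of Clock that can replace it, is described after its values were seen. It was 1.88, 4.84 and 7.39 in controls and 6.11, 4.13 and 9.55 in deleted uteri. Its lowest and highest libraries, control replicate 1 and Nat10-deleted replicate 3, were those of Arntl. The log2 change was 0.48 with all libraries (SE 0.41, limma adjusted p 0.939) and 0.06 without control replicate 1, but 0.73 without Nat10-deleted replicate 2.

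The repressing arm was less uniform. Per1 (ENSMUSG00000020893, chr11:69095217-69109960, plus strand), which also responds acutely to glucocorticoids, had values of 23.0, 20.4 and 22.2 in controls and 19.1, 13.2 and 30.0 in deleted uteri. Controls lay close together and the 3 deleted libraries spread on both sides of them, so that the SD was 1.36 in controls and 8.51 in deleted uteri (n = 3 each). The log2 change was -0.14 (SE 0.26) with a limma adjusted p of 0.975. Leaving out Nat10-deleted replicate 2 gave 0.13, and leaving out control replicate 1 gave -0.11.

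Per2 (ENSMUSG00000055866, chr1:91415982-91459324, minus strand), the period gene with the lowest level here, had values of 13.6, 7.47 and 5.12 in controls and 10.8, 3.996 and 9.42 in deleted uteri. The groups overlapped throughout, with a log2 change of -0.10 (SE 0.40, limma adjusted p 0.989). The sign depended on single libraries: the change was 0.24 without control replicate 1 and 0.28 without Nat10-deleted replicate 2.

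Per3 (ENSMUSG00000028957, chr4:151003652-151044665, minus strand), whose loss disturbs rhythms least among the period genes, had values of 27.5, 8.99 and 8.55 in controls and 13.1, 5.31 and 12.2 in deleted uteri. It was the most variable member, with a highest value 5.19 times the lowest, and 1.72% of tested genes had a range as large. Controls averaged 15.0 ± 10.8 (SD, n = 3) and deleted uteri 10.2 ± 4.28 (SD, n = 3). The log2 change of -0.40 (SE 0.47, limma adjusted p 0.951) became 0.11 without control replicate 1 and -0.03 without Nat10-deleted replicate 2. Per3 lies within the span of Camta1 on the same strand.

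Cry1 (ENSMUSG00000020038, chr10:85131700-85185064, minus strand), a strong repressor of the CLOCK and BMAL1 pair, had values of 11.04, 13.5 and 10.3 in controls and 15.6, 12.4 and 13.4 in deleted uteri. The groups overlapped only through control replicate 2. Controls averaged 11.6 ± 1.70 (SD, n = 3) and deleted uteri 13.8 ± 1.68 (SD, n = 3). On the log2 scale this came to 0.23 (SE 0.14, limma adjusted p 0.922). Its sign was the same without each library in turn, at 0.14 to 0.34. Cry1 had a modest range, with a highest value 1.52 times the lowest.

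Cry2 (ENSMUSG00000068742, chr2:92403646-92434043, minus strand), the other cryptochrome, had values of 22.3, 15.1 and 21.5 in controls and 22.4, 8.94 and 25.0 in deleted uteri. Nat10-deleted replicate 2 was the lowest library and control replicate 2 the next lowest, with the other 4 between 21.5 and 25.0. The log2 change of -0.16 (SE 0.36, limma adjusted p 0.985) became 0.28 when Nat10-deleted replicate 2 was left out and -0.06 when control replicate 1 was. A transcript on the opposite strand, D930015M05Rik, overlaps Cry2 by 23417 bases.

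The REV-ERB genes repress Arntl. Nr1d1 (ENSMUSG00000020889, chr11:98767932-98775333, minus strand) had values of 47.7, 26.9 and 29.9 in controls and 31.4, 18.8 and 33.6 in deleted uteri. Nr1d2 (ENSMUSG00000021775, chr14:18204054-18239127, minus strand) had 56.9, 32.2 and 30.5 in controls and 44.4, 23.0 and 32.9 in deleted uteri. Both were highest in control replicate 1 and lowest in Nat10-deleted replicate 2, and the other 4 libraries lay between. The log2 changes were -0.31 (SE 0.28) for Nr1d1 and -0.24 (SE 0.30) for Nr1d2, with limma adjusted p of 0.943 and 0.953. Without control replicate 1 they were -0.06 and 0.04, and without Nat10-deleted replicate 2 -0.05 and 0.00. Nr1d1 and Thra share 1075 bases on opposite strands, and Thra was at 100.5 to 115 in the 6 libraries. The part of Thra reads in the Nr1d1 values was not tested.

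Dbp (ENSMUSG00000059824, chr7:45705088-45710203, plus strand), the D-box factor and a direct readout of E-box activity, had values of 127, 45.7 and 37.7 in controls and 54.1, 30.1 and 36.2 in deleted uteri. Control replicate 1 was 2.35 times the highest of the other 5 libraries, which overlapped between groups. Controls averaged 70.1 ± 49.4 (SD, n = 3) and deleted uteri 40.1 ± 12.5 (SD, n = 3), which is 57.2% of the control mean. This largest change among the members, -0.62 on the log2 scale (SE 0.44, limma adjusted p 0.926), was -0.09 (SE 0.26) without control replicate 1 and -0.44 without Nat10-deleted replicate 2. Without both control replicate 1 and Nat10-deleted replicate 2, a setting chosen after the data were seen, it was 0.09. Dbp shares 737 bases with Sphk2 on the opposite strand, and Sphk2 was 14.2, 14.3 and 13.9 in controls and 9.89, 12.7 and 12.7 in deleted uteri. Its groups did not overlap, and its log2 change of -0.25 (SE 0.12, limma adjusted p 0.922) had the sign of that of Dbp. The part of Sphk2 reads in the Dbp values was not tested.

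**Figure D3:**
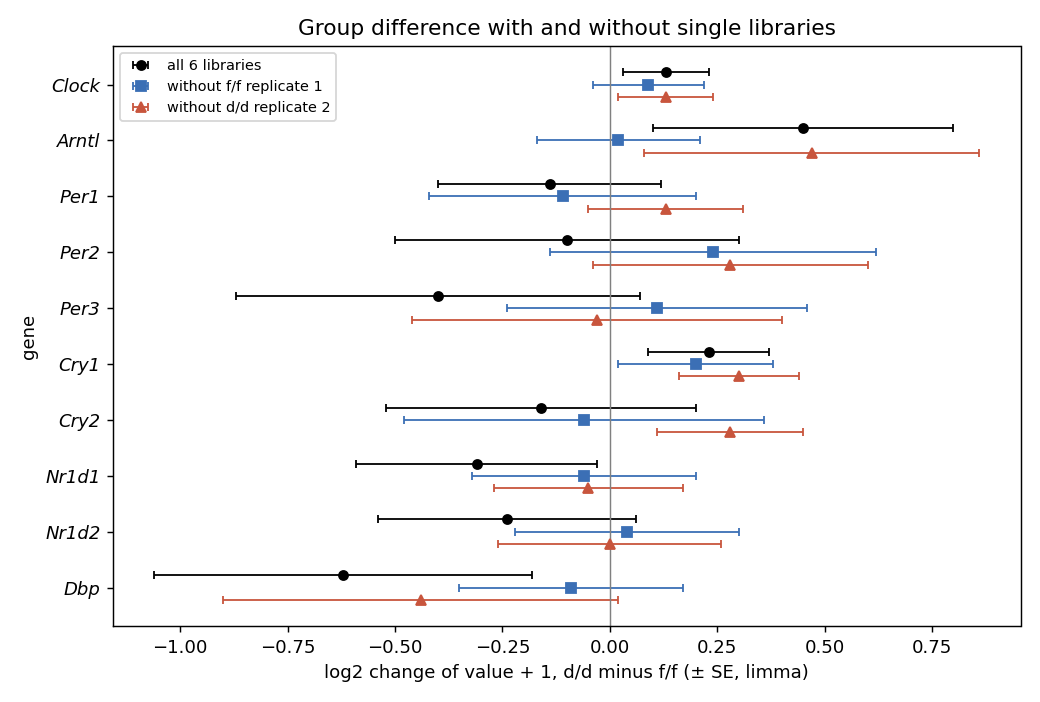
Change between groups for each clock gene on the log2(value + 1) scale, Nat10-deleted minus control, with bars of ± 1 SE from limma. Black circles use all 6 libraries, blue squares leave out control replicate 1 and red triangles leave out Nat10-deleted replicate 2; Arntl moves from 0.45 to 0.02 and Dbp from -0.62 to -0.09 when control replicate 1 is left out.

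Library by library, control replicate 1 held the highest value of 5 members (Per2, Per3, Nr1d1, Nr1d2 and Dbp) and the lowest of 2 (Clock and Arntl). Over all tested genes it was the highest library for 9.42% and the lowest for 10.4%. Nat10-deleted replicate 2 held the lowest value of 7 members (Per1, Per2, Per3, Cry2, Nr1d1, Nr1d2 and Dbp), while it was the lowest library for 25.7% of tested genes. For Per2, Per3, Nr1d1, Nr1d2 and Dbp these libraries therefore lay at opposite ends, and for Clock they did so in reverse, at 14.4 and 17.1. For Arntl they did not, since the value of Nat10-deleted replicate 2 (14.5) lay among those of the other libraries. Nat10-deleted replicate 3 was highest for Arntl, Per1 and Cry2.

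**Figure D4:**
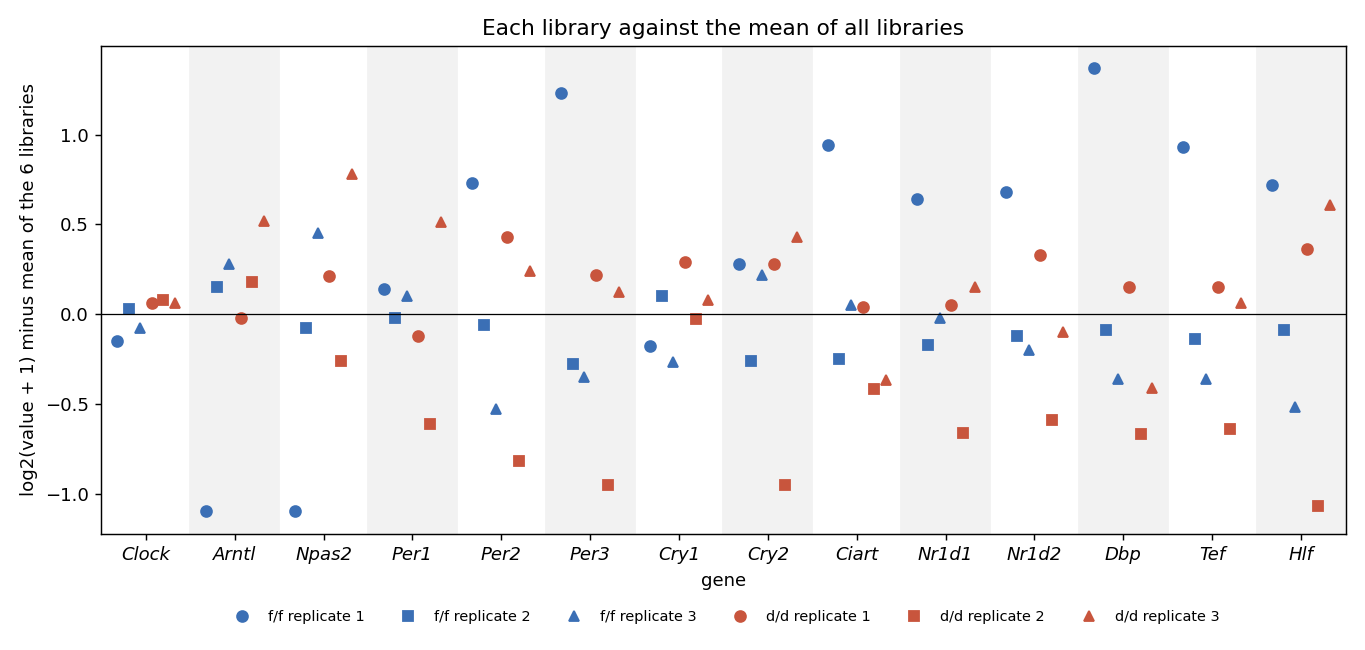
Deviation of each library from the mean of the 6 libraries on the log2(value + 1) scale, for the 10 clock genes and for Npas2, Ciart, Tef and Hlf. Blue symbols are f/f controls and red symbols d/d; control replicate 1 (blue circle) is low for Arntl and Npas2 and high for Per2, Per3, Ciart, Nr1d1, Nr1d2, Dbp, Tef and Hlf, and Nat10-deleted replicate 2 (red square) is lowest for most of the latter.

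Relations between members were computed on log2(value + 1) over the 6 libraries for 17 pairs, Arntl with each other member and Dbp with each of the remaining 8. By exact permutation of the pairings (two-sided) 4 pairs had an unadjusted p under 0.05, and none had after adjustment over the 17 pairs. Without control replicate 1 the unadjusted count was 0 of 17, whereas leaving out any other library gave 2 to 8. Arntl was lower where Dbp was higher, with r = -0.95 (exact p 0.0194, adjusted 0.110) and Spearman rho = -0.83 (exact p 0.0583, adjusted 0.248). Without the libraries farthest from the median of Arntl, control replicate 1 and Nat10-deleted replicate 3, r was -0.74. Dbp and Nr1d2 had r = 0.93 (exact p 0.00556, adjusted 0.0826) and rho = 0.83 (exact p 0.0583, adjusted 0.248), and r = 0.83 without control replicate 1 and Nat10-deleted replicate 2.

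The relations of Dbp with Per3, Per2 and Nr1d1 were weaker or turned without the 2 farthest libraries. Dbp and Per3 had r = 0.92 (exact p 0.00972, adjusted 0.0826) and rho = 0.83 (exact p 0.0583, adjusted 0.248), but r = 0.36 without both libraries. Dbp and Per2 had r = 0.80 (exact p 0.0347, adjusted 0.148) and rho = 0.83 (exact p 0.0583, adjusted 0.248), and r = 0.53 without them. For Dbp and Nr1d1, r changed from 0.83 (exact p 0.05, adjusted 0.17; rho = 0.60, exact p 0.242, adjusted 0.456) to -0.28. Per1 had r = 0.02 with Arntl (exact p 0.949, adjusted 0.949; rho = 0.26, exact p 0.658, adjusted 0.809) and r = 0.26 with Dbp (exact p 0.536, adjusted 0.701; rho = 0.20, exact p 0.714, adjusted 0.809). Without the 2 farthest libraries these were 0.07 and -0.82. Groups of 3 are too small for a relation within a group.

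**Figure D5:**
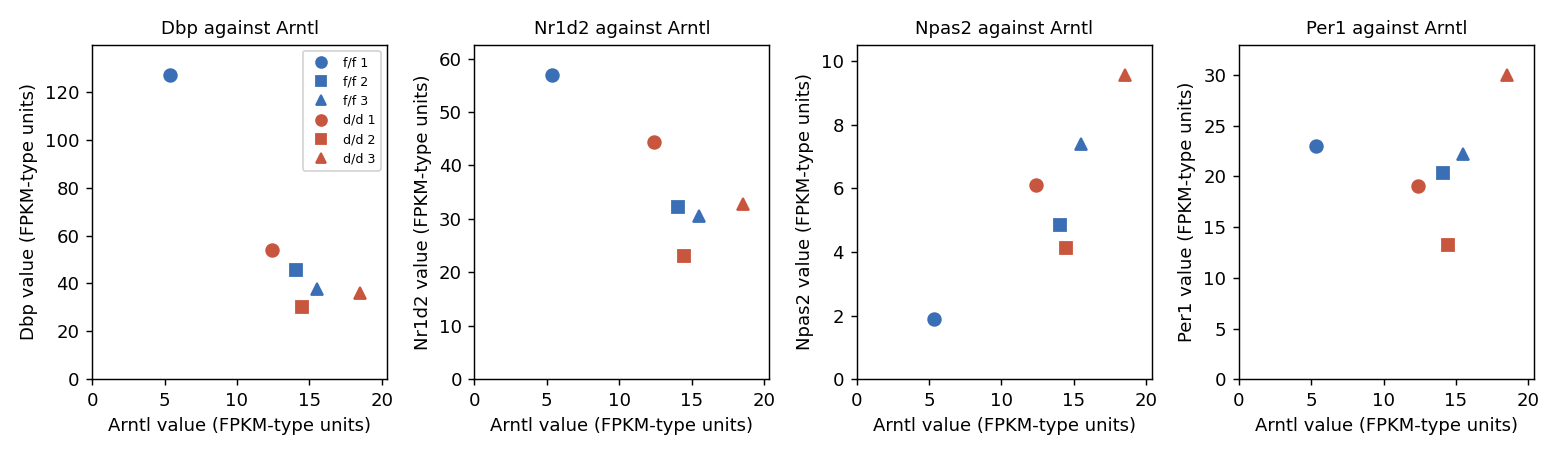
Values of Dbp, Nr1d2, Npas2 and Per1 against Arntl in the 6 libraries (FPKM-type units, linear axes from 0; blue f/f, red d/d, symbols as replicates). Control replicate 1, at an Arntl value of 5.36, lies apart from the other 5 libraries for Dbp and Nr1d2 at the top and for Npas2 at the bottom, and Per1 shows no such order.

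Ranked among the 12639 other tested genes by r with Arntl, Dbp was 9th, Ciart 13th and Tef 93rd from the negative end, and Npas2 was 27th from the positive end (r = 0.90). Hlf was 1299th and Cry2 3966th from the negative end, and Cry1 2794th and Per1 6177th from the positive end. The genes most like Arntl were Amotl2 (r = 0.985), Atad3a (0.984) and Rabgef1 (0.970). These varied far less than Arntl: Amotl2 ran from 13.8 in control replicate 1 to 21.1 in Nat10-deleted replicate 3. Ranked by r with Dbp, Ciart was 11th (r = 0.94), Tef 12th (0.94), Nr1d2 15th and Per3 19th from the positive end, and Arntl was 10th from the negative end. Per1 was 2692nd from the positive and Cry1 4209th from the negative end. The genes most like Dbp were Ssbp2 (r = 0.991), Vps26b (0.984) and Pex16 (0.977), and Ssbp2 ran from 36.2 in Nat10-deleted replicate 2 to 46.9 in control replicate 1. These are Pearson r over 6 libraries and carry no test. They rest largely on control replicate 1, which deviated from the mean by -1.10 for Arntl and 1.37 for Dbp. The next largest deviations were 0.52 for Arntl (Nat10-deleted replicate 3) and -0.67 for Dbp (Nat10-deleted replicate 2).

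Of 19 other clock genes (loop components, the kinases Csnk1d and Csnk1e, and ubiquitin ligases that act on PER and CRY), 18 were tested and 0 passed an adjusted p of 0.05 in either direction, as for 0% of all tested genes. Their median log2 change was -0.03, with 7 higher and 11 lower on average, where 56.6% of tested genes were higher. Bhlhe41 had too low a value to be tested. The 3 with the smallest p were Ciart (log2 change -0.50, SE 0.32), Bhlhe40 (0.22, SE 0.17) and Btrc (-0.13, SE 0.11), all with a limma adjusted p between 0.924 and 0.939. Without each library in turn the change ran from 0.11 to 0.36 for Bhlhe40 and from -0.18 to -0.08 for Btrc. Ciart, which encodes a repressor of the CLOCK and BMAL1 pair, was 2.75, 0.653 and 1.03 in controls and 1.01, 0.469 and 0.518 in deleted uteri. It was highest in control replicate 1, without which its change was -0.15. It was -0.41 without Nat10-deleted replicate 2, and -0.88 with a pseudocount of 0.1 in place of 1.

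The Dbp relatives Tef and Hlf are described after their values were seen. Tef was 87.0, 40.9 and 35.0 in controls and 50.2, 28.6 and 47.2 in deleted uteri. Hlf was 23.2, 12.7 and 9.21 in controls and 17.8, 5.96 and 21.4 in deleted uteri. Like Dbp, both were highest in control replicate 1 and lowest in Nat10-deleted replicate 2, and the groups overlapped. The log2 changes were -0.29 (SE 0.36) for Tef and -0.07 (SE 0.48) for Hlf. Without control replicate 1 they were 0.11 and 0.27. Leaving out Nat10-deleted replicate 2 gave -0.04 and 0.45.

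Among 10 clock output genes, 0 passed an adjusted p of 0.05 and the median log2 change was 0.03. Nampt, which encodes the rate-limiting enzyme of NAD salvage and is driven by the clock, was the only one with an unadjusted p under 0.05, or 1 of 10, where 4.98% of tested genes had one. Its controls stood at 13.8, 16.1 and 17.6 and its deleted libraries at 28.8, 20.7 and 20.2, so the groups did not overlap, as for 10.7% of tested genes. Controls averaged 15.8 ± 1.94 (SD, n = 3) and deleted uteri 23.3 ± 4.82 (SD, n = 3). The log2 change was 0.52 (SE 0.16) with a limma adjusted p of 0.922, and 0.36 to 0.60 without each library in turn. With limma's array quality weights, under which 2.5% of tested genes passed, the change was 0.79 with a limma adjusted p of 0.0386 (0.0386 to 1.00 over the settings tried), whereas 0 of the 10 clock members passed (smallest adjusted p 0.0738, for Cry1). Nampt did not follow Dbp: in control replicate 1, where Dbp was highest, Nampt was lowest.

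Per1 and Klf9 are also targets of glucocorticoids, so genes of stress hormones and handling were examined beside them. Of 8 such genes (Fkbp5, Tsc22d3, Sgk1, Zbtb16, Dusp1, Fos, Egr1 and Junb) 0 passed an adjusted p of 0.05, 7 had a higher mean in deleted uteri, and 3 had an unadjusted p under 0.05. Over all tested genes 56.6% had a higher mean and 4.98% such a p. These 3 were named after their values were seen. Fos, an immediate early gene, was 1.80, 3.43 and 3.505 in controls and 5.62, 6.01 and 5.86 in deleted uteri, without overlap (log2 change 0.84, SE 0.20, limma adjusted p 0.922). Sgk1, a glucocorticoid-induced kinase gene, was 19.2, 22.7 and 23.0 in controls and 12.8, 13.7 and 19.1 in deleted uteri (log2 change -0.50, SE 0.16, limma adjusted p 0.922). The groups did not overlap, though the highest deleted and the lowest control library nearly met. With array quality weights Sgk1 passed, at -0.62 (limma adjusted p 0.0470). Fkbp5, another glucocorticoid target, was 4.40, 2.25 and 1.58 in controls and 3.32, 6.12 and 9.88 in deleted uteri, with overlap (log2 change 0.96, SE 0.38, limma adjusted p 0.922), and its change was 0.35 with array quality weights. Without control replicate 1 the changes of Fos, Sgk1 and Fkbp5 were 0.61, -0.58 and 1.26. Leaving out Nat10-deleted replicate 2 gave 0.82, -0.44 and 0.94. Nat10-deleted replicate 3 had the highest Per1 (30.0), the highest Fkbp5 and the highest summed value of the 8 genes, 282 against 132 to 189 in the other libraries. Tsc22d3 alone gave 167 of the 282. Nat10-deleted replicate 2 had the lowest Per1 (13.2) but the next highest Fkbp5 (6.12). Klf9 was 56.6, 66.8 and 53.6 in controls and 58.3, 43.5 and 67.3 in deleted uteri. The part of the 8 genes in the Per1 result was not tested.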

How the data were processed

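Poly(A) RNA of whole uterus was measured in 3 Nat10 f/f and 3 Nat10 d/d libraries of postnatal day 21, grouped by sample title. The deposited values are FPKM-type values (abundance per gene length and library depth) made by the authors. The unit was inferred from the values and from HISAT2 2.2.1, Cufflinks 2.2.1 and mm10, which the submitters' processing notes name without their roles. The annotation, gene filter and strandedness are not given in the sources used here. Values were analysed as log2(value + 1), which understates changes of low genes, with limma 3.58.1 in R 4.3.3 (mean-variance trend, group as the only term, two-sided, Benjamini-Hochberg over the 12640 genes that reached 1 in 3 or more libraries). The exact permutation test used all splits of 3 against 3. On simulated data for this comparison with 12640 genes, 95.9% of genes changed by 1.5 log2 units were recovered and 5.12% of calls were false. Each simulation held 200 changed genes and independent normal noise, with no outlying library such as Nat10-deleted replicate 2. Recovery of changes as small as those of the members (-0.62 to 0.45) was not tested. Relative depth was the inverse of the most frequent ratio of a library's values to those of control replicate 1, over genes above 0 and under 0.1 in both. Counting intervals are not given, because absolute depth is unknown. Figures were drawn with matplotlib 3.10.9 in Python 3.11.15. Gene spans came from GENCODE M21, in which 20558 identifiers were found.

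The members and gene lists were chosen with earlier results of these data known. The text names every member, Nat10, the other clock and output genes with an unadjusted p under 0.05 (or else the 3 with the smallest p in a list), and the 3 genes most like Arntl and Dbp. Genes outside this rule are named as such or stand beside a result. Alternatives were another pseudocount, no filter, quantile normalization, median centring, array quality weights, no trend, a replicate block, and leaving out each library. No 2 libraries held identical values.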

Additional observations from a re-analysis of the deposited data

How the results depend on the processing

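Under a pseudocount of 0.1, no low-value filter, quantile normalization, median centring and the replicate block, 0 of the 10 clock members passed an adjusted p of 0.05 (limma), and each member kept the sign of its change. The replicate block called 0 genes, with 726 at an unadjusted p under 0.05 against 630 without it. Replicate numbers did not pair the libraries: deviations of same-numbered libraries correlated at -0.34, -0.03 and 0.10, and only Nat10-deleted replicate 3 correlated best with its own number. Array quality weights called 316 genes, among them 1 clock output (Nampt, 0.79), Sgk1 (-0.62) and Nat10 (-1.09), and turned Per2 (0.18), Cry2 (0.12), Nr1d2 (0.02) and the median of the 10 members (0.07). The cause was not tested.

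Without each library in turn, called genes numbered 0 to 12, the 12 without Nat10-deleted replicate 2. The called clock members and the called other clock and output genes stayed at 0. The median change of the 10 members ran from -0.34 to 0.13. The pairs with an adjusted p under 0.05 numbered 0 to 3, the 3 without Nat10-deleted replicate 3 and over 5 libraries only. Changes of sign occurred for Per1 (-0.44 to 0.13), Per2 (-0.39 to 0.28), Per3 (-0.68 to 0.11), Cry2 (-0.42 to 0.28) and Nr1d2 (-0.46 to 0.04), while Nr1d1 (-0.47 to -0.05) and Dbp (-0.95 to -0.09) stayed lower in deleted uteri. They arose without control replicate 1 for Per2 (0.24), Per3 (0.11) and Nr1d2 (0.04), and without Nat10-deleted replicate 2 for Per1 (0.13), Per2 (0.28) and Cry2 (0.28). Without both of these libraries, a setting chosen after the data were seen, 2 genes were called and 0 members. The median change was then 0.23, and the sign turned for Per1 (0.16), Per2 (0.63), Per3 (0.49), Cry2 (0.38), Nr1d1 (0.19), Nr1d2 (0.28) and Dbp (0.09). With 3 libraries a group, differences of the size seen here for most members lie within the spread between libraries.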
